A study of Mus musculus with 9 samples.

Results

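Apolipoproteins are the protein components of lipoproteins, the particles that carry fat and cholesterol through lymph and blood. Of the genes on a mouse microarray, 9 were followed here: the apolipoprotein genes Apob, Apoa1, Apoa4, Apoc2, Apoc3 and Apoe, the assembly factor Mttp, the Apob mRNA editing enzyme Apobec1 and the cholesterol exporter Abca1. They were taken by symbol, with every probe the platform annotation assigns to them. This gave 10 probes of the 26423 on the array, for 9 of 17742 named genes. Mttp has 2 probes and each other gene has 1. Apob drew attention because its probe was among the largest decreases under vanillin. The values of all these genes in Vanillin against Sham are therefore given as a description without a test, and so are those of Apob in every comparison.

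Colon RNA from female BALB/c mice was hybridised to 9 arrays, 3 in each of the groups Mock, Sham and Vanillin. Mock animals received no treatment. Sham animals received azoxymethane (AOM), a colon carcinogen, at 12.5 mg/kg on day 1. From day 8 these animals also drank 2.5% dextran sodium sulfate (DSS), a detergent-like polymer that injures the gut lining, for 5 days, followed by 16 days of water, and they went through 3 further cycles. Vanillin animals went through the same AOM and DSS course and were given vanillin, the main aroma compound of vanilla, by mouth at 100 mg/kg for 91 days. Mock differs from the others in both AOM and DSS, so the parts of these agents cannot be told apart. The labels give no ages, and whether each array is a mouse of its own is not stated, so p-values cover only array-to-array spread, part or all of which may be technical.

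Apolipoprotein B is the structural protein of chylomicrons, which absorptive cells of the small intestine release after a meal, and of the very-low-density lipoproteins (VLDL) made by the liver. The microsomal triglyceride transfer protein loads lipid onto it as it is synthesised. Apobec1 edits the Apob mRNA so that a shorter form of the protein is made, the form used for chylomicrons. Small exchangeable apolipoproteins then regulate the lipolysis and the uptake of the particles, while Abca1 hands cell cholesterol to apolipoprotein A-I to form high-density lipoprotein (HDL). The adult colon absorbs little dietary fat, and its own use of this machinery is limited.

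Values are probe intensities on a linear scale, after normalisation across arrays by the authors, and each change is a difference of means of log2(intensity + 16). Adding 16 makes the changes of dim probes smaller than the ratio of their intensities. The median intensity lay between 319.6 and 320.1 on the 9 arrays, and the correlation over all probes was 0.995 to 0.998 within groups and 0.926 to 0.973 between them. Markers of other tissues differed widely between the groups. All 15 squamous epithelium markers measured were lower in Sham than in Mock, with summed intensities of 609637 to 612999 in Mock, 27233 to 28261 in Sham and 360373 to 416701 in Vanillin. Of 12 adipocyte markers 10 were lower and 2 higher, with sums of 134328 to 135892, 26511 to 27560 and 113032 to 116513. Among colonocyte markers Lgals4, Epcam and Cdh17 were bright on every array, Lgals4 near the top of the scale with means of 63294 to 65508. Of the 13 measured, 3 rose, 3 fell and 7 were not called in Sham minus Mock. Those that fell were Slc26a3, Car4 and Car1, with changes of -2.98, -2.6 and -1.37 (limma adjusted p = 4.8e-09, 2.4e-06 and 4.6e-06). Their Mock means were 19645, 54509 and 19539. Those that rose were Cdh17, Vil1 and Guca2a, with changes of 1.17, 0.58 and 0.21 (limma adjusted p = 1.9e-07, 0.00241 and 0.0147). The summed intensity of 13 colonocyte markers was 323807 to 337081 in Mock, 280353 to 295259 in Sham and 257620 to 272876 in Vanillin, and the probe for Krt8 was below 50 throughout. In such bulk RNA, fewer cells of a type and less RNA per cell cannot be told apart.

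Apob was high in the Sham arrays and low in both other groups. Its intensity was 387.2, 272.2 and 331.6 in Sham 1, 2 and 3. The Mock arrays gave 108.9, 111.2 and 104.6. The Vanillin arrays gave 83.8, 80.3 and 77.0, so that no array of any group entered the range of another. The mean was 330.3 ± 57.5 (SD, n = 3) in Sham, 108.2 ± 3.38 (SD, n = 3) in Mock and 80.4 ± 3.39 (SD, n = 3) in Vanillin. The SD was widest in Sham, where Sham 2 was lowest. The Sham mean was above the Mock mean by 1.47 on the log2 scale (SE 0.11), and the Vanillin minus Sham change was -1.83 (SE 0.11). Between Vanillin and Mock the change was -0.37 (SE 0.11). Among the named probes lower in Vanillin than in Sham at an adjusted p under 0.05, Apob had the 9th largest of 7132 changes. Its neighbours in that order were 2010106E10Rik, at -1.94, and Gata5, at -1.77. Since the pseudocount of 16 weighs on a probe of this brightness, the Vanillin minus Sham change of Apob was -2.01 with a pseudocount of 1 and -1.44 with one of 64.

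**Figure D1:**
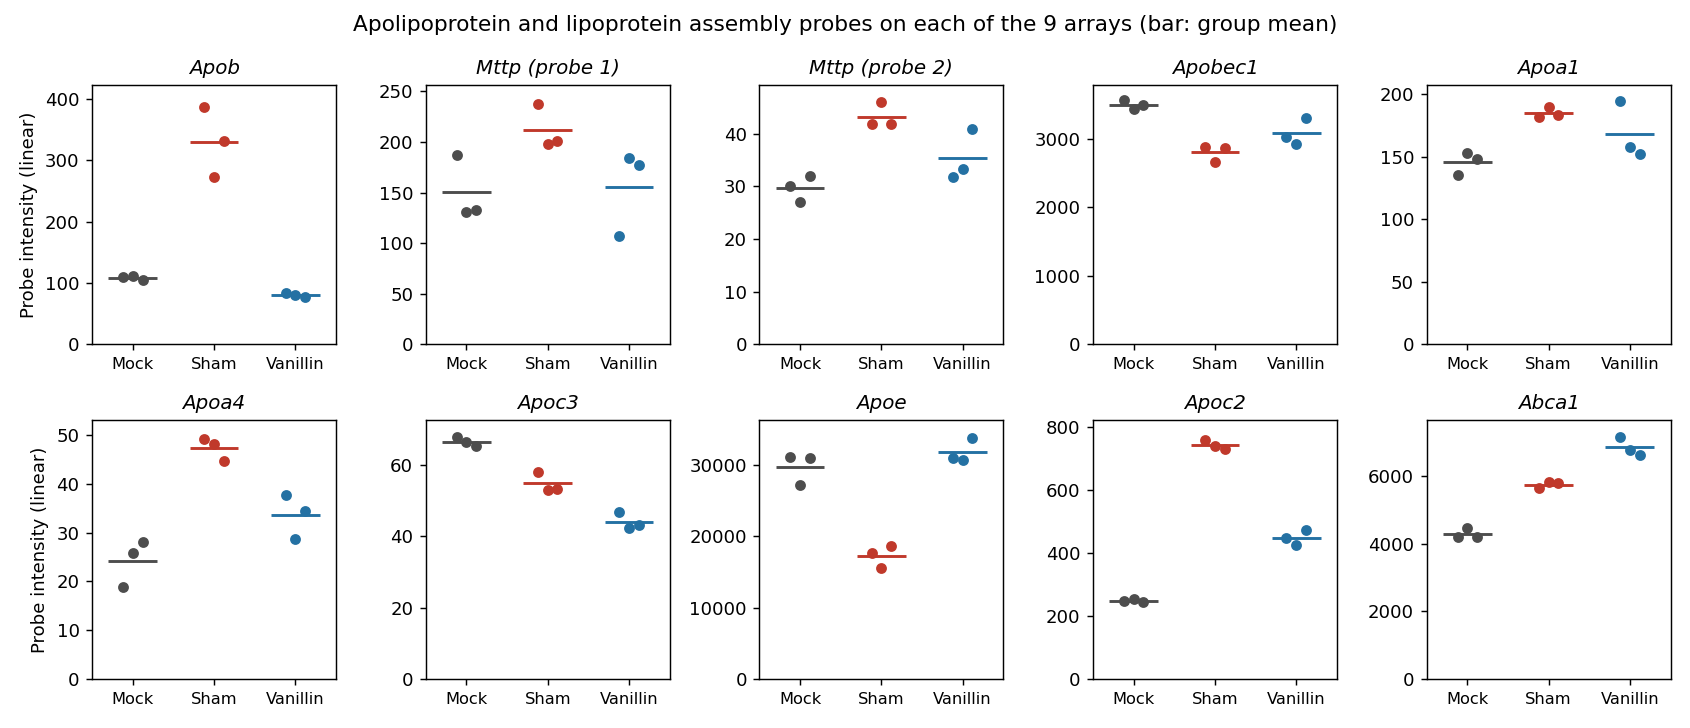
Probe intensity (vertical axis, linear, starting at 0, with its own range in each panel) of the 10 probes on the 9 arrays, with the brighter Mttp probe as probe 1. Points are arrays in the Mock, Sham and Vanillin groups and bars are group means; Apob is highest in Sham, with arrays from 272.2 to 387.2, and Apoe is lowest there.

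The region just before the transcription start is shown for Apob, Apoa4 and Apoc2. Each holds a match to a motif of the nuclear receptors that bind apolipoprotein genes. All of those shown had their highest mean in Sham. Apoa1 and Mttp were also highest there by their means, and their windows hold no match. Apobec1, lowest in Sham, holds a match and is given by position only. Any link between the matches and the group order was not tested. Hepatocyte nuclear factor 4 alpha (HNF4A), a receptor-type transcription factor of liver and gut epithelium, binds sites with a CAAAG core, and many receptors bind a direct repeat of AGGTCA spaced by a single base. The patterns searched on both strands were CAAAGTNCA, CAAAGGNCA and a direct repeat of AGGNCA with 1 base of any kind between the copies, which also holds CAAAGGNCA where that base is A. They were chosen after the sequences had been seen. Each sequence below is the 250 bases upstream of the start in RefSeq, build GRCm38.p6, read 5′ to 3′ on the gene's strand, with the match in capitals. The Apob window is chr12:7977427-7977676 on the plus strand, that of Apoa4 is chr9:46240594-46240843 on the plus strand, and that of Apoc2 is chr7:19677942-19678191 on the minus strand.
Apob: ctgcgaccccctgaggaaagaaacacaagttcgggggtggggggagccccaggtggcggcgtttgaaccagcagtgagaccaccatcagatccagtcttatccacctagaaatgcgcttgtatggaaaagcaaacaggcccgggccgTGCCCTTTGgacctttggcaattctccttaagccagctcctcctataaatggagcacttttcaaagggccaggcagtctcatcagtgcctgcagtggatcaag
Apoa4: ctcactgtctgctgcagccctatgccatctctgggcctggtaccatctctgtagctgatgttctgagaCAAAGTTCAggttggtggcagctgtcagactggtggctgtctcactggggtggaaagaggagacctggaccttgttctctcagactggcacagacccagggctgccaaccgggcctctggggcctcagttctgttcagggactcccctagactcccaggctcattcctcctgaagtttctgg
Apoc2: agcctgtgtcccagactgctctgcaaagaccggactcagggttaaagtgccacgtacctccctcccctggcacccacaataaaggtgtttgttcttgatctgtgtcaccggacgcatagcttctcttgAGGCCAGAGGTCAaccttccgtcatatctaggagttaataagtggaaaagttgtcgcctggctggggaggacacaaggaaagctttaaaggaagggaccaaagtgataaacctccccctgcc

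In Apob the match is CAAAGGNCA on the opposite strand, with its first base 103 bases before the start. In Apoa4 it is CAAAGTNCA at 182 bases before the start, and in Apoc2 the direct repeat at 122 bases. The window of Apobec1 (chr6:122602445-122602694, minus strand) holds CAAAGTNCA at 191 bases, and none of the patterns was found in the windows of Apoa1, Apoe, Mttp and Abca1. Of 9 genes, 8 had a window in the RefSeq table, and Apoc3 did not. Among 32851 such windows of all genes, 2.89% held CAAAGTNCA or CAAAGGNCA, at 1.19% and 1.71% for each, and 0.338% held the repeat. A match is a description of the letters and shows neither binding nor control.

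The transcript of Hnf4a, a gene named here after its values were seen, was highest in the Sham arrays. Its intensities were 11246.1, 10733.3 and 11051.1 in Mock, 17308.3, 18475.9 and 16829.9 in Sham and 11141.7, 11229.0 and 11518.0 in Vanillin. It rose from Mock to Sham by 0.67 (SE 0.05, limma adjusted p = 3e-06). Between Vanillin and Mock its change was 0.04 (SE 0.05, limma adjusted p = 0.573). Hnf4g, also named after its values were seen, had means of 909.7, 1017.9 and 791.1 in Mock, Sham and Vanillin. It was not called in Sham minus Mock (0.17, limma adjusted p = 0.27). The highest mean was in Sham for 14 of 18 measured regulators of these genes, both included, and for 48.9% of all probes. The part of Hnf4a in the Apob values was not tested.

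Outside Apob, these genes differed between Sham and Mock in both directions. Of the other 9 probes, 8 were called at an adjusted p under 0.05 in Sham minus Mock (limma, Benjamini-Hochberg adjustment over all probes), 5 higher and 3 lower. The array as a whole changed broadly in this comparison: 59.7% of all probes were called, 36.5% higher and 23.2% lower. The median change of the 9 probes was 0.38 against 0.1 over all probes. Apoa1, Apoa4, Apoc2, Abca1 and the dimmer Mttp probe rose, while Apoe, Apoc3 and Apobec1 fell. In Vanillin minus Mock, 5 of the 9 were called, 3 higher and 2 lower, where 50.7% of all probes were called, 24.5% higher and 26.2% lower. Their median change was 0.17 against 0 over all probes. This count was 3 without Mock replicate 1 and also 3 without Vanillin replicate 1. In Vanillin minus Sham, 7 of all 10 probes passed the same threshold, 2 higher and 5 lower, where 47.9% of all probes did, 15.7% higher and 32.2% lower, a count given only as a description. The arrays of Sham and Mock did not overlap for 9 of the 9 probes, 6 higher and 3 lower, against 67.1% of all probes, 41.2% higher and 25.9% lower. Vanillin and Mock did not overlap for 5 of the 9, 3 higher and 2 lower, against 60.4%, 29.2% and 31.2%. Vanillin and Sham did not overlap for 9 of the 10, Apob included, 3 higher and 6 lower, against 56.3%, 18.2% and 38.1%. The 3 comparisons share arrays, so their changes are not independent of each other.

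**Figure D2:**
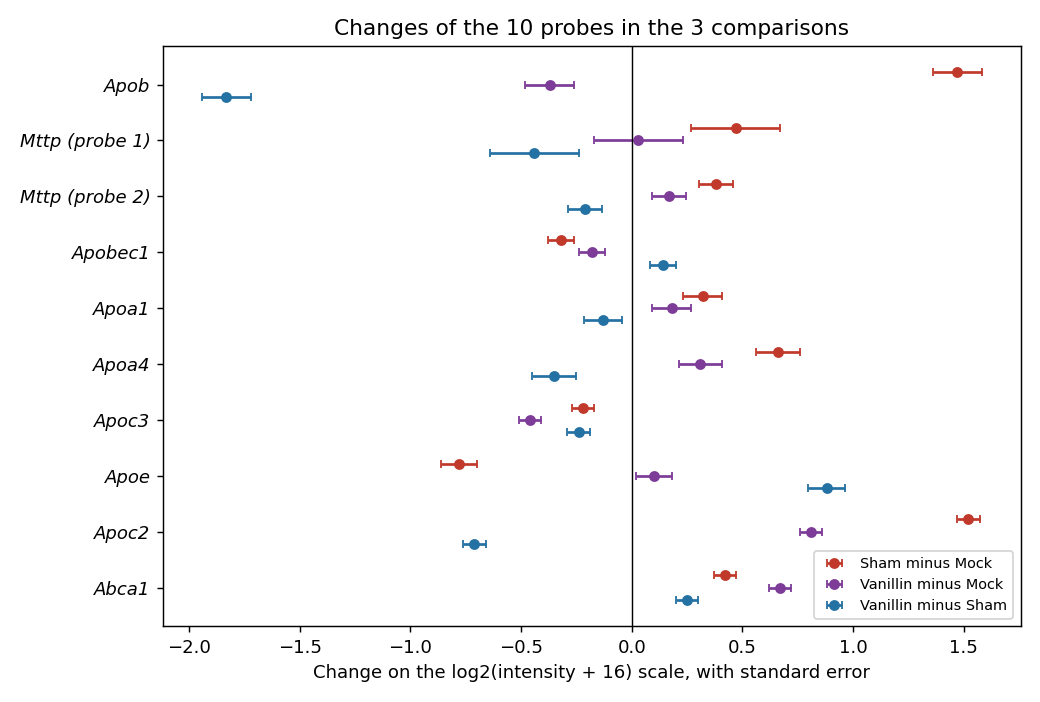
Change on the log2(intensity + 16) scale (horizontal axis) of the 10 probes in Sham minus Mock, Vanillin minus Mock and Vanillin minus Sham, as points with their standard errors. Apob and Apoc2 have the widest spread between comparisons, with Sham minus Mock changes of 1.47 and 1.52, and Apoe lies at -0.78.

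The partners of apolipoprotein B had smaller changes than Apob. Mttp, the lipid-loading subunit, is measured by 2 probes. The brighter one read 186.8, 131.2 and 132.6 in Mock, 237.7, 198.1 and 200.6 in Sham and 106.7, 183.7 and 177.1 in Vanillin. All Sham arrays were above all others, with a change of 0.47 (SE 0.2) in Sham minus Mock that was not called (limma adjusted p = 0.0674). It passed the threshold without Mock replicate 1, at an adjusted p of 0.0259, and without Vanillin replicate 1, at 0.0141. These are the arrays that stand farthest from the others of their group on this probe. The dimmer probe lay at 29.7 ± 2.52 (SD, n = 3) in Mock, 43.3 ± 2.37 (SD, n = 3) in Sham and 35.4 ± 4.85 (SD, n = 3) in Vanillin, a level where small absolute differences count. It rose by 0.38 in Sham (SE 0.076, limma adjusted p = 0.00214). In Vanillin minus Mock neither Mttp probe was called, at 0.17 (limma adjusted p = 0.0997) and 0.03 (limma adjusted p = 0.911). The Vanillin minus Sham changes were -0.21 for the dimmer probe and -0.44 for the brighter one.

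Apobec1, the cytidine deaminase that edits Apob mRNA, ran the other way. Its intensity was 3563.3, 3434.2 and 3495.4 in Mock, 2885.7, 2662.4 and 2861.4 in Sham and 3030.3, 2925.6 and 3302.9 in Vanillin. Every Mock array was above every Vanillin array and every Vanillin array above every Sham array. Apobec1 fell in Sham by 0.32 (a change of -0.32, SE 0.059, limma adjusted p = 0.00128). In Vanillin minus Mock it fell by 0.18 (limma adjusted p = 0.0298), a call that was lost without any 1 of Mock replicates 1, 2 and 3 and Vanillin replicates 1 and 2, at adjusted p values of 0.0532 to 0.11. Between Vanillin and Sham it was 0.14 higher.

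The list for Apob mRNA editing held cofactors of Apobec1 and 2 relatives of it, Apobec2 and Apobec3, that are not known as Apob editors. Of the 4 genes measured of 5 listed, the cofactors Rbm47 and A1cf and the relative Apobec3 rose in Sham and Apobec2 fell. Rbm47, an RNA-binding cofactor of Apobec1, had means of 3425.6, 5038.6 and 3166.3 in Mock, Sham and Vanillin and rose in Sham by 0.55 (SE 0.043, limma adjusted p = 3.7e-06). A1cf, the cofactor first described with Apobec1, rose by 0.23 in Sham (SE 0.077, limma adjusted p = 0.0279) and fell by 0.26 in Vanillin minus Mock (limma adjusted p = 0.0193). The first A1cf call was lost without Mock replicate 1 or 3 or without Sham replicate 1 or 2 (adjusted p of 0.0787 to 0.0924). The second was lost without Mock replicate 2 (adjusted p = 0.0686). Apobec2, known from muscle, fell by 2.86 in Sham (limma adjusted p = 7.8e-10), and Apobec3, known from antiviral defence, rose by 0.75 (limma adjusted p = 0.0008). The 6 measured smooth muscle markers all fell in the same comparison, with sums of 93504 to 94877 in Mock, 40406 to 43125 in Sham and 46551 to 49840 in Vanillin. Apobec2 means were 4314.2, 579.5 and 1265.5 in Mock, Sham and Vanillin. No other muscle type had a marker list, and the part of muscle in the Apobec2 value was not tested.

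Apoa1, Apoc3 and Apoa4 lie next to each other in the genome, with Apoa5 as the following protein-coding gene, but did not move as a block. Apoa4, a chylomicron apolipoprotein linked to satiety, read 18.9, 25.8 and 28.0 in Mock, 49.1, 48.2 and 44.6 in Sham and 37.8, 28.7 and 34.4 in Vanillin. All arrays were at or below 50, yet the 3 groups did not overlap. Apoa4 rose by 0.66 in Sham (SE 0.098, limma adjusted p = 0.00031) and by 0.31 in Vanillin minus Mock (SE 0.098, limma adjusted p = 0.0278). The second call was lost without Mock replicate 1 (adjusted p = 0.0767), without Vanillin replicate 1 (0.0837), without Vanillin replicate 3 (0.076), with array weights (0.178), with only the 6 arrays compared (0.0562) and with the replicate number as a block (0.0565). In Vanillin minus Sham the change was -0.35, or -0.49 with a pseudocount of 1 and -0.19 with one of 64.

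Apoa1, the main protein of HDL and the acceptor of cholesterol from Abca1, went from 145.7 ± 9.14 (SD, n = 3) in Mock to 185.2 ± 4.37 (SD, n = 3) in Sham. It rose by 0.32 (SE 0.086, limma adjusted p = 0.0108). The Vanillin arrays, at 194.6, 157.8 and 152.4, reached from the Mock range to above the Sham range, and the change against Mock was 0.18 (limma adjusted p = 0.108). Apoc3, an inhibitor of lipoprotein lipase and of particle uptake, was lowest in Vanillin. Its arrays ran from 65.3 to 68.0 in Mock, from 53.0 to 58.2 in Sham and from 42.3 to 46.8 in Vanillin, without overlap. The probe is dim, below 50 on every Vanillin array. Apoc3 fell by 0.22 in Sham (SE 0.051, limma adjusted p = 0.00465) and by 0.46 in Vanillin minus Mock (limma adjusted p = 7.1e-05). Apoa5, an activator of triglyceride lipolysis named here for its position, showed a change of 0.18 in Sham (limma adjusted p = 0.154). In Vanillin minus Mock Apoa5 rose by 0.3 (limma adjusted p = 0.0349). That call was lost without Mock replicate 1 or 2 or Vanillin replicate 1 or 2 (limma adjusted p of 0.0814 to 0.101). So of these 4 neighbours, 2 rose, 1 fell and 1 was not called in Sham minus Mock.

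Markers of small intestinal enterocytes, the cells known for chylomicron production, were mixed. In Sham minus Mock 6 of 15 rose and 7 fell. Fabp1 (means of 9.74, 45.2 and 13.4 in Mock, Sham and Vanillin), Fabp2 (2637, 3958 and 3294), Slc10a2 (123, 432 and 187) and Alpi (122, 181 and 157) had the group order of Apoa4 and Apoc2. Slc2a2 (44.3, 53.1 and 39.1) and Mep1b (3690, 3790 and 1917) had the order of Apob by their means alone. Mep1b was not called in Sham minus Mock (0.04, limma adjusted p = 0.524), nor Slc2a2 in Vanillin minus Mock (-0.13, limma adjusted p = 0.181). Fabp6 (668, 163 and 167), Rbp2 (1967, 427 and 500) and Mep1a (1765, 623 and 291) were highest in Mock. The other decreases in Sham minus Mock were those of Slc5a1, Lct, Anpep and Treh. Sis, Fabp1 and Enpep were below 50 on every array, and the sum of all 15 was 13388 to 13959 in Mock, 11245 to 11701 in Sham and 8281 to 8428 in Vanillin. Of 9 hepatocyte markers 2 rose and 3 fell in Sham minus Mock. Their sum, 11219 to 12002 in Mock, 7856 to 9280 in Sham and 12328 to 12979 in Vanillin, is mostly that of Hp (7247, 4529 and 10200), while Tat (448, 961 and 537) was highest in Sham, and Fgb and Apoh were below 50 on every array. The goblet cell sum was highest in Sham, at 329767 to 332807 in Mock, 452251 to 459871 in Sham and 370404 to 377107 in Vanillin, with 6 of 10 markers higher and 1 lower in Sham minus Mock. The part of these cell types in the results was not tested.

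Apoe and Apoc2 belong to a second cluster, with Apoc4 and Apoc1 as the only protein-coding genes between them, and moved in opposite directions. Apoe, the ligand by which remnant particles are taken up and a major product of macrophages, read 31039.8, 27152.9 and 30888.7 in Mock. The Sham arrays gave 17672.7, 15595.2 and 18554.2, all below every other array. The Vanillin arrays gave 30966.7, 30676.9 and 33666.7 and overlapped with Mock. Apoe fell in Sham by 0.78 (a change of -0.78, SE 0.082, limma adjusted p = 3.1e-05). Between Vanillin and Mock its change was 0.10 (SE 0.082, limma adjusted p = 0.349). The Vanillin minus Sham change was 0.88.

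Apoc2, the activator of lipoprotein lipase, was lowest in Mock. Its intensities were 247.7, 252.4 and 244.1 in Mock, 757.0, 739.0 and 730.4 in Sham and 445.7, 425.1 and 473.3 in Vanillin. The groups were far apart relative to their spread. Apoc2 rose by 1.52 in Sham (SE 0.051, limma adjusted p = 9.9e-09) and by 0.81 in Vanillin minus Mock (limma adjusted p = 1.5e-06). In Vanillin minus Sham the change was -0.71.

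Apoc1, an apolipoprotein of VLDL and HDL, showed the widest change of the cluster. It read 16702.7, 15269.2 and 16575.4 in Mock, 321.2, 287.4 and 293.7 in Sham and 11335.4, 12881.2 and 13214.3 in Vanillin. Apoc1 fell by 5.68 in Sham (SE 0.074, limma adjusted p = 1.8e-11) and by 0.38 in Vanillin minus Mock (limma adjusted p = 0.00236). Apoc4, named for its position, was not called in either comparison (0.76 and 0.80, limma adjusted p = 0.0549 and 0.0511). Its Mock 1 value of 666.9 was far below those of Mock 2 and 3, at 1591.2 and 1615.7, and without Mock replicate 1 the changes were 0.34 and 0.39, both called (limma adjusted p = 0.0359 and 0.0261). Apoe and Apoc1 were lowest in the Sham arrays, as were the summed adipocyte and squamous epithelium markers, and the part of those cells in the results was not tested.

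**Figure D3:**
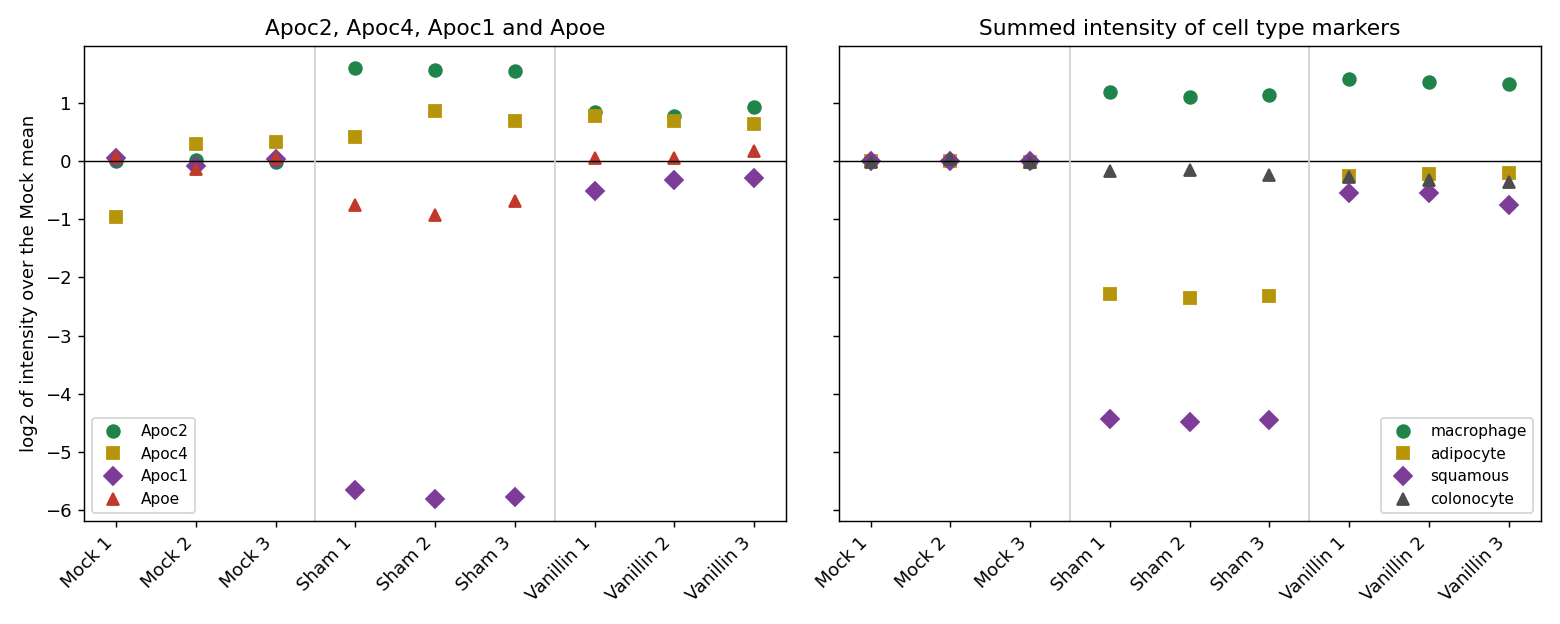
Left, intensity of Apoc2, Apoc4, Apoc1 and Apoe on each array as the log2 ratio to the Mock mean (vertical axis); right, the summed intensity of the markers of 4 cell types on the same scale. In the Sham arrays Apoc2 is above and Apoe and Apoc1 are below the Mock mean, as are the adipocyte and squamous sums, while the macrophage sum is above it.

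Abca1, the transporter that starts HDL formation, had its highest level in Vanillin. It read 4188.0, 4469.4 and 4214.7 in Mock, 5637.2, 5821.0 and 5789.2 in Sham and 7158.6, 6764.7 and 6629.2 in Vanillin. No 2 groups overlapped. Abca1 rose by 0.42 in Sham (SE 0.05, limma adjusted p = 7.4e-05) and by 0.67 in Vanillin minus Mock (limma adjusted p = 5e-06), and the Vanillin minus Sham change was 0.25. The summed macrophage markers had the same order, at 48407 to 49802 in Mock, 105050 to 111573 in Sham and 123282 to 130194 in Vanillin. Of 13 markers, 7 rose and 2 fell in Sham minus Mock, and 11 rose and 2 fell in Vanillin minus Mock. Their part in the Abca1 result was not tested.

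The group orders sorted the genes into 6 patterns. Apoa1, Apoa4, Apoc2 and both Mttp probes had their lowest mean in Mock and their highest in Sham, with Vanillin between. Apob had its lowest in Vanillin and its highest in Sham. Apoe was lowest in Sham and highest in Vanillin, Apobec1 lowest in Sham and highest in Mock, Apoc3 lowest in Vanillin and highest in Mock, and Abca1 lowest in Mock and highest in Vanillin. In all, 6 of the 10 probes had their highest mean in Sham, against 48.9% of all probes, and 6 had their lowest in Mock, against 43.3%. All 3 pairs of groups were free of overlap for Abca1, Apoa4, Apob, Apobec1, Apoc2 and Apoc3, 2 pairs for Apoe and both Mttp probes, and 1 pair for Apoa1.

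The wider lipoprotein pathway changed in both directions. Its counts stand against shares over all probes of 36.5% higher and 23.2% lower in Sham minus Mock and of 24.5% higher and 26.2% lower in Vanillin minus Mock. Of 16 measured other apolipoproteins, 4 rose, 3 fell and 9 were not called in Sham minus Mock, with a median of 0.12 against 0.1 over all probes. Clu (apolipoprotein J, a secreted chaperone) rose by 0.85 (limma adjusted p = 3.6e-07). Apool, a mitochondrial inner membrane protein, rose by 0.55 (limma adjusted p = 2.8e-05) and Apon by 0.44 (limma adjusted p = 0.00039). The Apon probe is dim, with means of 24.2 in Mock and 38.6 in Sham. In Vanillin minus Mock 3 rose and 4 fell, Clu among the former at 0.29 (limma adjusted p = 0.00082). Apool was also called there, at 0.18 (limma adjusted p = 0.0251), but not without Mock replicate 2 or 3 or Vanillin replicate 2 or 3 (adjusted p of 0.0624 to 0.094).

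Of 26 genes of chylomicron and VLDL assembly, 11 rose and 6 fell in Sham minus Mock, with a median of 0.08, and 7 rose and 6 fell in Vanillin minus Mock, where all probes gave the shares above. Cd36 counts among the increases in both by its brighter probe alone. The genes that make triglyceride differed in direction. Dgat1, named after its values were seen, was not called in Sham minus Mock (-0.53, limma adjusted p = 0.0572). Mogat2, the monoacylglycerol acyltransferase of gut epithelium, rose by 1.16 in Sham (limma adjusted p = 1.1e-06), from a mean of 179.5 to 422.2. Dgat2, which completes triglyceride synthesis, fell by 1.66 (limma adjusted p = 6.6e-09), from 8364.3 to 2642.3. Slc27a4, a fatty acid transporter, fell by 1.19 (limma adjusted p = 2.2e-06). Fabp1, a fatty acid binding protein of liver and proximal gut, rose by 1.25 (limma adjusted p = 5.9e-07) but stayed below 50 on every array, with means of 9.7 and 45.2. The means of Mogat2 and Dgat2 in Vanillin, 235.1 and 5708.4, lay between those of the other groups. Dgat2 and Slc27a4 were lowest in Sham, as were the summed adipocyte markers given above, and the part of those cells was not tested. The fatty acid transporter Cd36, named after its values were seen, has probes that disagree, the brighter at 1.19 (limma adjusted p = 0.00023) and the other at -2.88 (limma adjusted p = 1.6e-10) in Sham minus Mock, so its direction is unsettled.

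Cholesterol efflux and HDL genes other than Abca1 did not follow it as a group: of 12 measured, 3 rose and 4 fell in Sham minus Mock and 3 rose and 6 fell in Vanillin minus Mock, with medians of -0.07 and -0.29. Abcg5, which pairs with Abcg8 as a sterol exporter of the gut, fell by 0.79 in Sham (limma adjusted p = 1.3e-06) and by 1.22 in Vanillin minus Mock (limma adjusted p = 1.4e-07). Pltp, the phospholipid transfer protein, fell by 1.49 in Sham (limma adjusted p = 7.2e-08). Soat2, which esterifies cholesterol, rose by 0.42 (limma adjusted p = 5.1e-05). The liver X receptors switch on Abca1 when cells hold excess sterol. Nr1h2, which encodes one of them, rose by 1.92 in Sham (limma adjusted p = 1.5e-07) and by 1.28 in Vanillin minus Mock (limma adjusted p = 4.3e-06), from a Mock mean of 36.2. The other, Nr1h3, named after its values were seen, showed -0.12 (limma adjusted p = 0.166) in Sham and fell by 0.78 in Vanillin minus Mock (limma adjusted p = 1.6e-05). Abcg1, also on this list and named after its values were seen, changed by -0.5 and -0.45 on its brighter probe (limma adjusted p = 8.3e-05 and 0.00025). The part of the liver X receptors in the Abca1 values was not tested.

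Of 12 receptors, 5 rose and 5 fell in Sham minus Mock, where 36.5% of all probes were higher and 23.2% lower. A further count, in Vanillin minus Mock, gave 5 rising and 4 falling, where 24.5% and 26.2% of all probes did. The 4 with the smallest p were all increases. Cubn, an endocytic receptor that binds apolipoprotein A-I, rose by 2.72 in Sham (limma adjusted p = 4.8e-09) and by 2.12 in Vanillin minus Mock (limma adjusted p = 7.1e-08). Lrp8, a receptor for apolipoprotein E and reelin, rose by 1.65 (limma adjusted p = 3.4e-07). The scavenger receptors Msr1, of macrophages, and Olr1, for oxidised low-density lipoprotein, rose by 1.90 (limma adjusted p = 2.9e-06) and 1.61 (limma adjusted p = 4.4e-07), and the second Msr1 probe rose by 1.34 (limma adjusted p = 3.1e-07). In the same comparison 7 of 13 macrophage markers rose and 2 fell, as given beside Abca1.

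Lipases and their partners gave 4 increases and 3 decreases among 8 measured in Sham minus Mock, and 1 increase and 3 decreases in Vanillin minus Mock. Angptl4, an inhibitor of lipoprotein lipase, fell by 1.30 in Sham (limma adjusted p = 2.8e-07), while Angptl8, a relative that also restrains the lipase, rose by 1.59 (limma adjusted p = 6e-08). Gpihbp1, which holds the lipase on capillaries, fell by 0.57 (limma adjusted p = 9.5e-05) and Lipg, the endothelial lipase, by 0.56 (limma adjusted p = 0.00015). In Vanillin minus Mock, Lipg fell by 0.69 (limma adjusted p = 6e-05), and the changes of Angptl4 and Gpihbp1, -0.14 and -0.08, were not called (limma adjusted p = 0.126 and 0.36). The summed adipocyte markers given above were also lowest in Sham, though not every one of them: Lpl, the lipase itself, had means of 16900 in Mock, 19087 in Sham and 13550 in Vanillin. The part of those cells in the results was not tested.

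Of 18 transcription factors known to regulate intestinal apolipoprotein genes, 12 rose and 2 fell in Sham minus Mock, where 36.5% of all probes were higher and 23.2% lower, with a median of 0.51 against 0.1 over all probes. The highest mean was in Sham for 14 of the 18, against 48.9% of all probes. Both counts include Pparg, whose means were only 7.1 in Sham and 4.2 in Mock. The summed squamous epithelium, adipocyte and smooth muscle markers given above were lowest in Sham, and their part in these counts was not tested. Cdx2, the intestinal homeobox factor, rose by 3.13 (SE 0.055, limma adjusted p = 1.2e-10), with means of 472.8 in Mock, 4265.4 in Sham and 2783.4 in Vanillin. The pioneer factors Foxa1 and Foxa3 rose by 1.47 (limma adjusted p = 8.2e-09) and 1.64 (limma adjusted p = 1.1e-06). Ppara, the fatty acid receptor, fell by 1.73 on its brighter probe (limma adjusted p = 7.8e-09), while the other probe gave -0.01 (limma adjusted p = 0.961). In Vanillin minus Mock 9 of the 18 rose and 4 fell, against 24.5% and 26.2% of all probes, with Cdx2 at 2.52 (limma adjusted p = 2.3e-09), Foxa1 at 0.81 (limma adjusted p = 1e-06) and Foxa3 at 0.87 (limma adjusted p = 0.00013). In Vanillin minus Sham, described without a test, 11 were past the threshold as lower and 4 as higher, where 32.2% and 15.7% of all probes were; the changes of Cdx2, Foxa1 and Foxa3 were -0.61, -0.66 and -0.77.

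**Figure D4:**
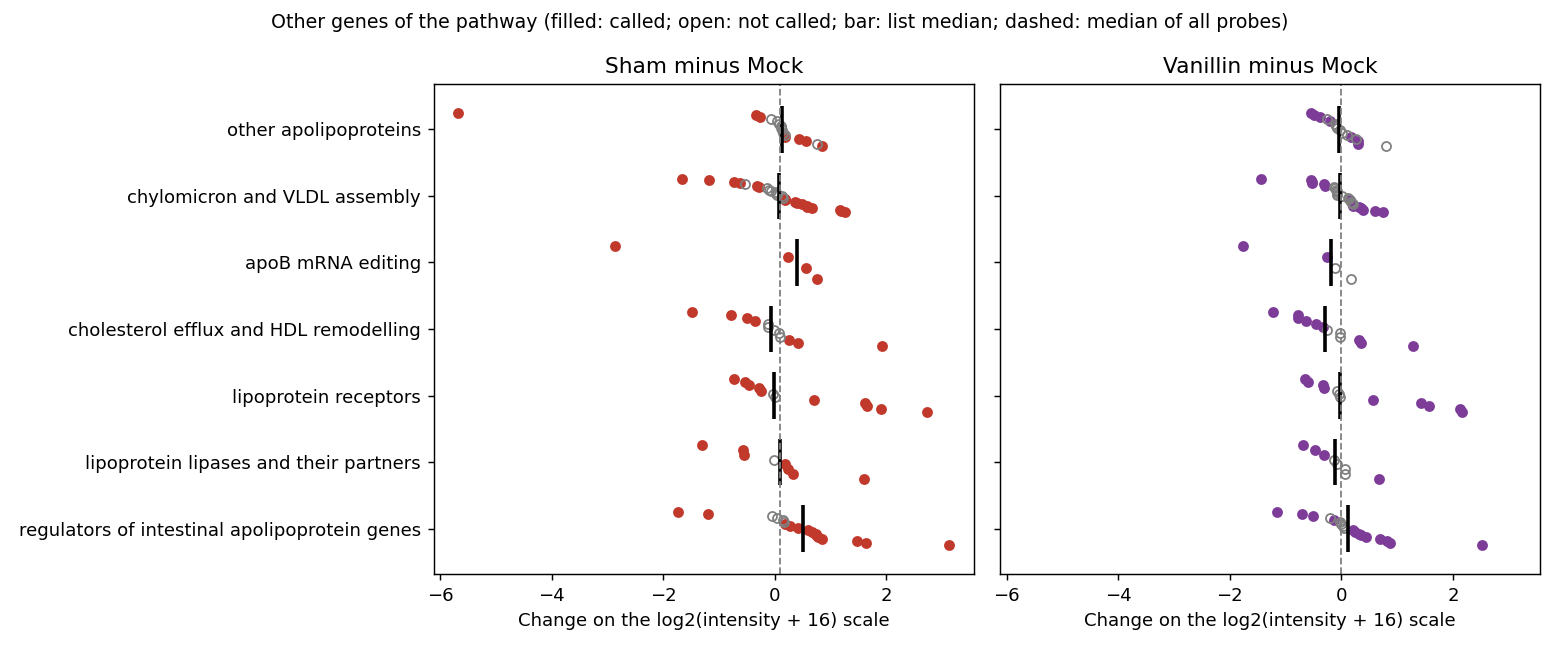
Change on the log2(intensity + 16) scale (horizontal axis) of every measured gene of the 7 pathway lists, 1 point per gene by its brightest probe, in Sham minus Mock (left) and Vanillin minus Mock (right). Filled points were called, open ones were not, black bars are list medians and the dashed line is the median of all probes; Apoc1 (-5.68) and Cdx2 (3.13) mark the ends of the range in Sham minus Mock.

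The probes most like Apob over the 9 arrays were sought among 3344 named probes whose group means spanned at least 1 on the log2 scale. The closest were Npas2, a clock transcription factor, with Pearson's r of 0.994, then Upk3b, an uroplakin (0.99), Dqx1 (0.989), Vip, the vasoactive intestinal peptide of enteric neurons (0.988), Adgrg7 (0.987) and Prr7 (0.986). Each had its highest mean in Sham, as Upk3b did with 160.4 in Mock, 532.8 in Sham and 121.3 in Vanillin, and its lowest in Vanillin. These coefficients describe 9 arrays that fall into 3 groups and were picked from many, so they carry no test.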

How the data were processed

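The deposited values are probe intensity on a linear scale, quantile-normalised by the authors as the values themselves show: sorted log2 values differ by at most 0.109 between arrays. Labelling was with Cy5, per the labels, and limma is named in the submitters' processing notes without a role; scanner and background method are not given in sources used here. Values below 0 (3 to 14 per array) were set to 0, and log2(value + 16) was fitted in limma 3.58.1 (R 4.3.3; lmFit and eBayes, two-sided) with 3 group means over all 9 arrays, 6 residual and 2.69 prior degrees of freedom. The Benjamini-Hochberg adjustment ran over 26423 probes of each comparison, with calls made under an adjusted p of 0.05. No probe was left out, so every probe of the 9 genes was tested on its own values. The fit was also tested on simulated arrays in which few probes were shifted, and only in Sham. Far more probes were called in these data, so that run does not vouch for the calls.

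The genes and the lists were chosen with earlier results of these data known. From each pathway list, with 1 probe per gene (the brightest), up to 4 called genes with the smallest p in Sham minus Mock are named. Genes were named through the platform's annotation, which gives 1 symbol for 20377 probes and none for 6046. Alternatives were other pseudocounts, a filter on dim probes, array weights, a mean-variance trend, the replicate block, the 2 groups alone and leaving out each array. Deviations from group means correlated at 0.126 to 0.201 between same-numbered Sham and Vanillin arrays. Same-numbered pairs with Mock gave -0.288 to -0.016. Differently numbered arrays reached 0.215 (Mock 1 with Vanillin 3) and 0.198 (Mock 2 with Vanillin 1), so this check cannot decide whether arrays are paired. Any pairing would rest on the numbers in the labels alone. The main fit held no block, and the replicate block was run only as an alternative. The number of arrays limits the precision. Plots used matplotlib 3.10.9 (Python 3.11.15).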

Additional observations from a re-analysis of the deposited data

How the results depend on the processing

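Over the 30 changes of the 10 probes, 483 of 511 alternative values kept their direction and side of the threshold or moved by less than the spread; 9 moved, 4 reversed, 4 became called and 11 lost their call. Without the dimmest 30% of probes, the genes other than Apob gave 5 calls in Sham minus Mock and, against the same Mock arrays, 3 in Vanillin, and 4 probes, Apob included, passed in Vanillin minus Sham; fewer of the probes were tested there. Leaving out each array in turn gave 8 to 9, 3 to 5 and 5 to 7. With the replicate block these counts were 8, 4 and 6, Apoa4 losing its call in Vanillin minus Mock (limma adjusted p = 0.0565); the block on the 6 arrays of Vanillin and Sham, chosen after seeing the data, gave 6. The brighter Mttp probe reversed in Vanillin minus Mock, to -0.05 and -0.04 without Mock replicate 2 or 3 and to -0.09 and -0.07 without Vanillin replicate 2 or 3, in a range of -0.09 to 0.26 over the arrays left out. Apobec3 reversed there to -0.06 with array weights, and Apoc4 in Vanillin minus Sham to -0.07 without Sham replicate 1, in a range of -0.07 to 0.15. The cause was not tested. Counts over all probes and the pathway list counts stayed within 1.5 times under the alternatives run. Apoa4, Fabp1, Apon and the dimmer Mttp probe lie below 50, where signal over background limits their changes. Apoc3 was below 50 on the Vanillin arrays. Its Vanillin minus Sham change was -0.31 with a pseudocount of 1 and -0.14 with one of 64. Olr1, Angptl8 and Cubn rose from Mock means below 50, at 19.2, 30.7 and 39.0.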
